A study of Bos taurus with 12 samples.

Results

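The window described here is a stretch of 2 Mb of cattle chromosome 5, from base 117000001 to base 119000000 of the build ARS-UCD1.2. It holds the gene TAFA5 and all but the first part of TBC1D22A. Its members are the rows of the authors' 2 deposited tables that start inside it: 1089 of 196275 CpG cytosines (sites) and 2 of 1227 windows of 500 bases (tiles). Both tables list only rows that the authors had found to differ between the groups, by at least 25 percentage points. The window was itself picked for its many listed rows. Direction and size of the differences are therefore properties of the choice and are given as descriptions.

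Blood was taken from 12 cattle, kept alike on a farm. The mastitis susceptible group, MSG, held 6 cows culled within 1 year of sampling because of complications of mastitis, a disease of the udder that had not been recognised when blood was drawn. The mastitis resilient group, MRG, held 6 cows of similar age still in the herd after that time. The labels name no treatment or engineered allele, and their genotype field holds only the group, MSG or MRG. Numbers such as MSG 3 only name a cow within its group and pair no cows. Every value is the percent methylation of 1 cow in whole blood DNA, read after enzymatic conversion, in which protected (methylated or hydroxymethylated) cytosines stay cytosine and all others are read as thymine. A thymine that an animal inherited looks the same as an unmethylated cytosine.

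DNA methylation in mammals sits mainly on cytosines followed by guanine (CpG), on both strands, and most CpGs between and inside genes are methylated while CpG-rich promoters are mostly not. Blood is a mixture of cell types with differing methylation, and each cow has a maternal and a paternal copy of the chromosome, so a value is an average over cells and over both copies. TAFA5 encodes a small secreted protein related to chemokines, best known from brain and fat tissue. TBC1D22A encodes a protein with a TBC domain, the domain by which many proteins switch off Rab GTPases in membrane traffic.

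Listed sites were dense in this window. Its 1089 sites stood against a median of 108 over all 2618 windows of 2 Mb taken at steps of 1 Mb, a ratio of 10.1, and 3 of those windows, this one included, held as many or more. The window carried 8.49% of the listed sites of chromosome 5 and 0.555% of all. The flanking sequence was also rich, with 379 listed sites in the 1 Mb before the window and 358 in the 1 Mb after it. At the borders, the first site inside (position 117007938, plus strand) averaged 86.3% in MSG and 59.1% in MRG, and the nearest site outside (116992203, minus strand) averaged 48.8% in MSG and 28.9% in MRG. The last site inside (118999027, plus strand) averaged 54.9% in MSG and 86.1% in MRG, and the next one outside (119003038, plus strand) 52.0% in MSG and 95.6% in MRG.

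Lower methylation in MSG was the more common direction. In MSG 463 of the 1089 sites were higher and 626 lower, so 42.5% were higher, against 52.8% of the 195186 listed sites elsewhere and 58.8% of those elsewhere on chromosome 5. The first 1 Mb held 263 higher and 241 lower sites, and the second 1 Mb held 200 higher and 385 lower ones. In the flanks, 63.6% of the sites in the 1 Mb before the window and 39.1% in the 1 Mb after it were higher in MSG. Both listed tiles were lower in MSG.

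**Figure D1:**
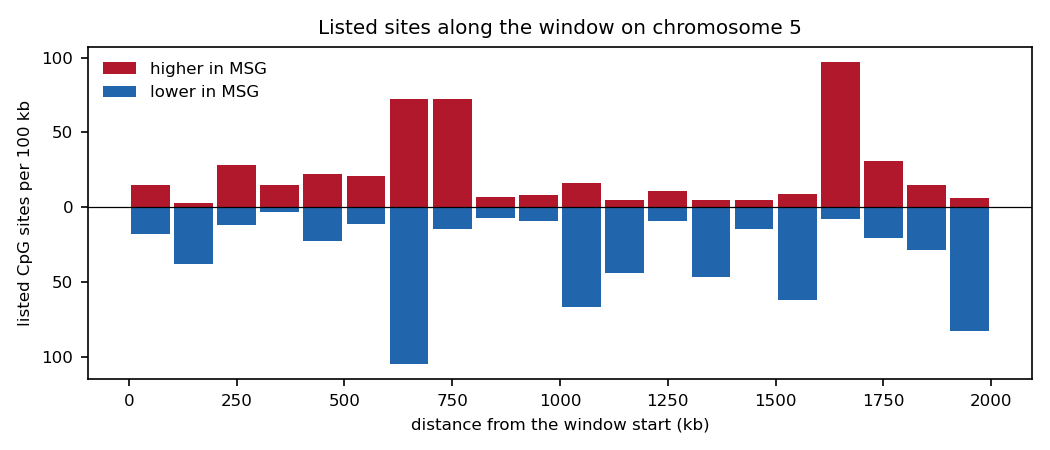
Number of listed CpG sites in each 100 kb of the window, by distance from its start in kb. Red bars pointing up count sites higher in MSG and blue bars pointing down count sites lower in MSG; the tallest bars are 105 lower sites at 600 to 700 kb and 97 higher sites at 1600 to 1700 kb.

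Sites of one direction lay together. The plot of sites along the window shows 177 sites between 600 and 700 kb from its start, 72 higher and 105 lower in MSG, followed by 72 higher and 15 lower ones in the next 100 kb. Between 1600 and 1700 kb, 97 of 105 sites were higher in MSG, and between 1900 and 2000 kb, 83 of 89 were lower. Of neighbouring sites 2 to 99 bases apart, 84.7% (105 of 124 pairs) had the same direction. The share was 75.1% (254 of 338) at 1 to 10 kb and 57.4% (27 of 47) beyond that. Joined into runs of sites closer than 1 kb, the 1089 sites made 386 runs, of which 176 were single sites and 53 held 5 or more. Among those 53 runs, 16 were all higher, 19 all lower and the rest mixed.

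Both strands of a CpG gave like values. The sites fell on 829 CpGs, of which 260 were listed on both strands, and all 260 had the same direction on both. The median absolute difference between strands within a cow was 6.71 points over 3002 pairs of values, and 0.70% of the pairs differed by more than 50 points. Of 373 pairs with a 0 on at least 1 strand, 353 had 0 on both.

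Most sites lay far from the genes to which they were assigned. The authors' annotation called 928 of the 1089 sites (85.2%) distal intergenic, against 58.2% over the whole table, and 151 (13.9%) intronic, against 34.9%. It placed 7 sites in promoters, 2 in an exon and 1 just downstream of a gene. Sites were named for the nearest transcription start, which gave 414 to MIR2285O-5, a microRNA gene (117234119 to 117234194, minus strand), 274 to TAFA5, 256 to LOC107132535, a protein-coding locus in the RefSeq gene table, and 33 to TBC1D22A. None of the 414 sites of MIR2285O-5 lay in its hairpin, and they reached 535 kb away from it. The other 112 sites had no gene symbol.

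Between TBC1D22A and TAFA5, 1074 kb without a named protein gene held 578 sites, 277 higher and 301 lower in MSG. TAFA5 spans 118304835 to 118480508 on the plus strand in the widest deposited models. Inside these bounds lay 69 sites, 0.393 per kb against 0.544 per kb over the window, 10 higher and 59 lower in MSG. At the 59 lower sites MSG cows averaged 72.6%, 37.1%, 20.8%, 16.8%, 54.5% and 18.8% for MSG 1 to 6. MRG cows averaged 86.8%, 63.0%, 84.6%, 58.5%, 75.7% and 82.2% for MRG 1 to 6. MSG 2 to 6 lay below every MRG cow, and MSG 1 lay among the MRG cows. The 10 higher sites averaged 92.9% ± 2.1 in MSG cows and 62.5% ± 24.1 in MRG cows (SD, n = 6 each). An unnamed gene on the other strand, ENSBTAG00000051431, overlaps TAFA5 and shares most of these sites, so a site here cannot be given to one gene alone.

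By the authors' annotation, 203 of the 274 sites assigned to TAFA5 were distal intergenic and 67 intronic. In the gene, 50 sites were placed in intron 1 of the transcript ENSBTAT00000031229 and 15 in its intron 2. The 3 promoter sites lay 2.52 to 2.85 kb before a start of TAFA5 that is inside the widest bounds of the gene. All were lower in MSG, and they are among the 59 lower sites counted inside those bounds. At the one on the minus strand at 118373366, MSG 1 to 6 stood at 90.9%, 30%, 0%, 0%, 53.3% and 0%. MRG 1 to 6 stood at 100%, 71.4%, 100%, 46.2%, 100% and 93.3%. MSG 3, 4 and 6 had no methylated read at any of the 3 promoter sites, and the groups overlapped at each.

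TBC1D22A, on the plus strand from 116973678 to 117230659 in its widest model, has its start outside the window. The part inside held 80 sites, 18 higher and 62 lower in MSG. The 62 lower sites averaged 70.8%, 44.6%, 41.4%, 42.9%, 70.1% and 28.7% in MSG 1 to 6. In MRG 1 to 6 they averaged 92.3%, 80.7%, 91.7%, 82.2%, 92.0% and 58.7%. MRG 6 lay below MSG 1 and MSG 5, so the groups overlapped. Both strands of 1 CpG (117168653 and 117168654) in the last exon of its transcript ENSBTAT00000075523 were listed. They stood at 60.3% ± 31.6 and 61.2% ± 28.5 in MSG cows and 94.8% ± 12.8 and 87.7% ± 25.5 in MRG cows (SD, n = 6 each).

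Of the 256 sites of LOC107132535, 147 were higher in MSG. Its 4 promoter sites, on both strands of CpGs at 118562513 and 118564532, were all higher in MSG and averaged 93.8% ± 3.2 in MSG cows and 57.1% ± 20.6 in MRG cows. MSG cows averaged 89.9% to 98.2% over them, MRG 5 averaged 98.3%, and the other MRG cows averaged 41.4% to 52.1%. A gene without a symbol, ENSBTAG00000014987, beyond the end of the window, was the nearest for 100 sites, 89 of them lower in MSG.

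The cows of a group did not share the difference evenly. Over the 626 lower sites MSG 1 to 6 averaged 68.9%, 37.5%, 29.5%, 38.1%, 61.5% and 27.0%, a mean of 43.7% ± 17.3 (SD, n = 6). MRG 1 to 6 averaged 85.1%, 82.1%, 84.9%, 78.8%, 71.6% and 66.7%, a mean of 78.2% ± 7.5. MSG 2, 3, 4 and 6 were low and well apart from every MRG cow, while MSG 1 lay above MRG 6 and MSG 5 lay just below it.

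Over the 463 higher sites the uneven group was MRG. MSG 1 to 6 averaged 66.3%, 83.9%, 87.3%, 85.6%, 83.0% and 91.3%, a mean of 82.9% ± 8.6. MRG 1 to 6 averaged 36.5%, 68.3%, 24.5%, 63.9%, 63.9% and 31.8%, a mean of 48.2% ± 19.3. MRG 1, 3 and 6 were low, and MRG 2 lay above MSG 1. The direction of both differences, 34.7 points up and 34.5 points down, was fixed by the choice of sites.

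At least 1 cow was at exactly 0 in 573 sites (52.6%), against 78.4% of the listed sites elsewhere. Without these, 215 higher and 301 lower sites were left. At those 215 higher sites every MSG cow lay between 91.7% and 93.1%, and MRG 1 to 6 averaged 44.9%, 79.2%, 46.7%, 69.2%, 71.0% and 45.9%. At the 301 lower sites MSG 1 and 5 averaged 76.0% and 85.7%, while MSG 2, 3, 4 and 6 averaged 45.8%, 45.6%, 45.4% and 43.0%. MRG 1 to 5 averaged 89.6% to 93.2% there, and MRG 6 averaged 75.8%.

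**Figure D2:**
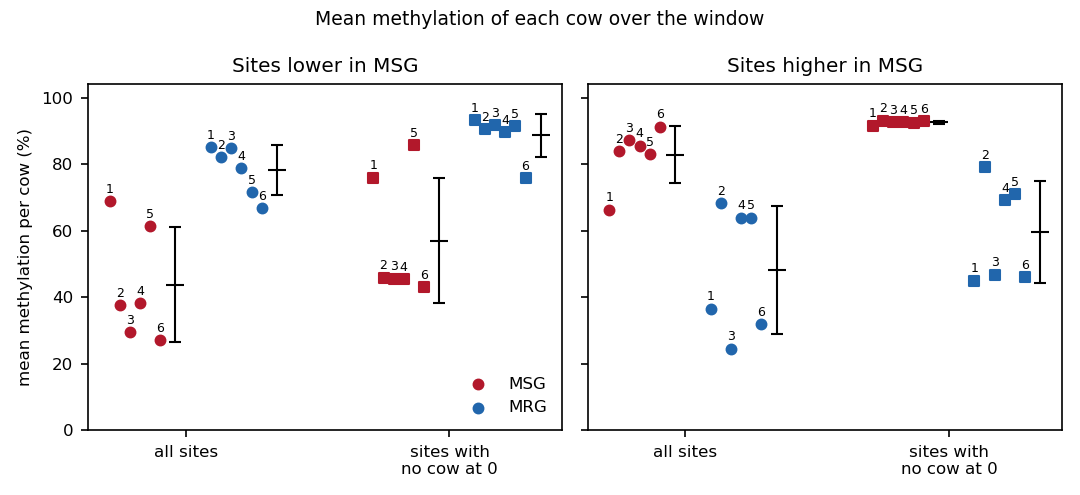
Mean percent methylation of each cow over the sites of the window that were lower (left) or higher (right) in MSG, for all such sites (circles) and for those at which no cow was at exactly 0 (squares); MSG in red and MRG in blue, digits give the cow's number, and black bars show the group mean ± SD of 6 cows. At the lower sites with no cow at 0, MSG 2, 3, 4 and 6 sit between 43.0% and 45.8%, and at the higher ones all MSG cows sit between 91.7% and 93.1%.

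Low group means came from a share of the cows. Among the 301 lower sites with no cow at 0, 82.9%, 83.4%, 84.0% and 89.3% of the values of MSG 2, 3, 4 and 6 lay between 25% and 75% methylation, with medians of 44.4%, 44.4%, 44.4% and 43.6%. For MRG 1 to 5 at least 86.9% of the values lay above 75%. Among the 215 higher sites with no cow at 0, 86.4%, 79.7% and 83.0% of the values of MRG 1, 3 and 6 lay between 25% and 75%, and at least 92.9% of the values of each MSG cow lay above 75%. Other cows were divided: 42.5% and 42.3% of the values of MRG 4 and 5 at those higher sites lay between 25% and 75%, and 50.2% and 51.9% above, while MRG 6 at the lower sites had 44.3% and 54.7%. Over all 12769 values of the window, 12.1% were exactly 0, 3.59% lay above 0 and under 25%, 37.5% from 25% to 75%, and 46.9% above 75%. Elsewhere in the table those shares were 21.7%, 3.54%, 37.3% and 37.5%.

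The same cows were low over most of the window. Of its 20 stretches of 100 kb, 19 held 5 or more lower sites, and over these sites the mean of MSG 6 was under 50% in 19, those of MSG 2, 3 and 4 in 18 each, and those of MSG 1 and MSG 5 in 5 each. No mean of MRG 1, 2 or 3 was under 50% in any. Of 19 stretches with 5 or more higher sites, the mean of MRG 3 was under 50% in 19, that of MRG 1 in 17 and that of MRG 6 in 14. The means of MRG 2, 4 and 5 were under 50% in 4, 5 and 6 of them, and no MSG cow had a mean under 50% in any.

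Some cows stood at different levels in different parts of the window. At the lower sites MSG 1 averaged 81.6% over the first 1 Mb and 61.1% over the second, and MSG 6 averaged 16.3% and 33.7%. MRG 6 averaged 53.4% over the first 1 Mb and 75% over the second, while MRG 1 averaged 85.6% and 84.8%. At the higher sites between 1600 and 1700 kb, MSG 1 averaged 50.9% and the other MSG cows 92.0% to 94.2%. MRG 3 and MRG 6 averaged 2.72% and 2.97% there and MRG 1 averaged 46.7%, while MRG 2, 4 and 5 averaged 89.0%, 83.4% and 86.1%. In the flanks MSG 2, 3, 4 and 6 were again the lowest cows at the lower sites. In the 1 Mb after the window they averaged 39.2%, 30.8%, 27.6% and 29.1%, and in the 1 Mb before it 47.5%, 37.2%, 42.9% and 36.8%.

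**Figure D3:**
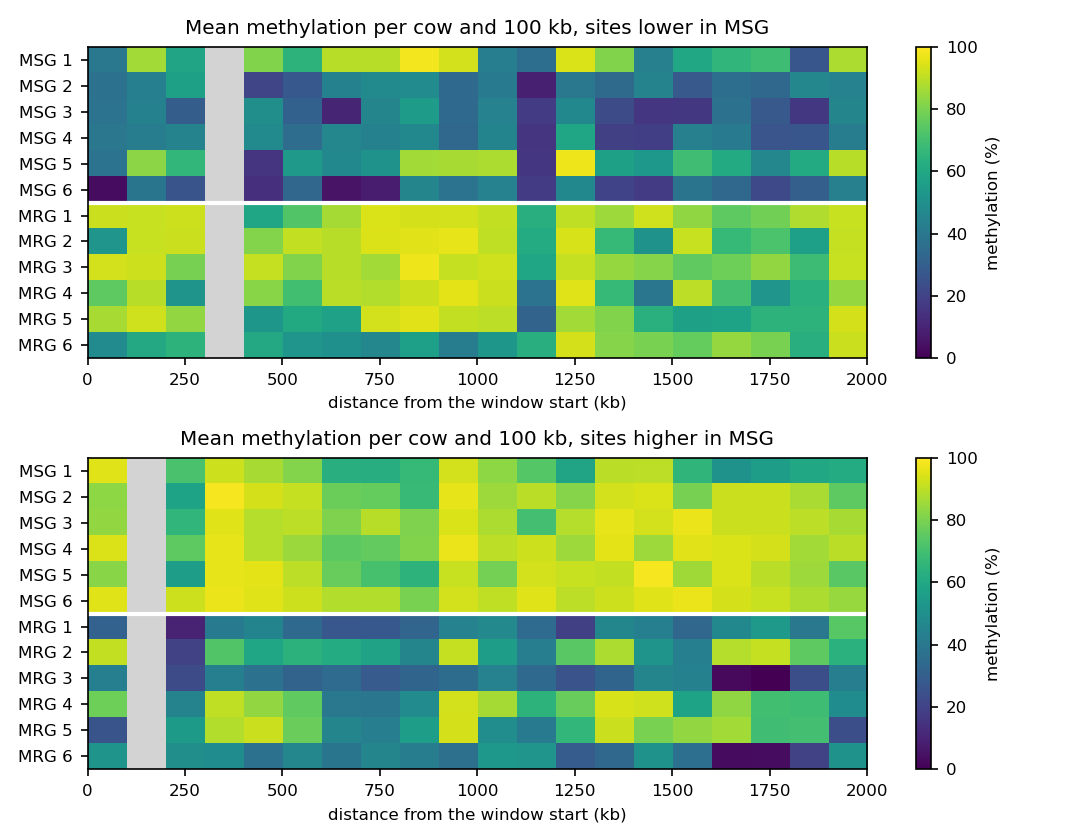
Mean percent methylation of each cow (rows, MSG above the white line and MRG below it) in each 100 kb of the window (columns, distance from the window start in kb), for sites lower in MSG (top) and higher in MSG (bottom). Colour runs from 0% (dark) to 100% (yellow), and grey marks stretches with fewer than 5 such sites; dark cells gather in the rows of MSG 2, 3, 4 and 6 in the top panel and of MRG 1, 3 and 6 in the bottom panel.

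Means over the rest of the table lay closer together within a group. Over the lower sites outside the window MSG cows averaged 32.5% to 41.4% and MRG cows 65.9% to 73.3%, and over the higher sites 66.6% to 73.3% and 33.9% to 41.8%. Those means rest on far more sites from all chromosomes, so their spread is not on the same footing as that of the window. In the flanks, which are closer to it in size, the SD over cows at the higher sites before the window was 17.0 in MSG and 23.4 in MRG. At the higher sites after the window it was 8.8 in MSG and 18.1 in MRG. For the lower sites it was 15.4 in MSG and 10.1 in MRG before the window, and 20.1 in MSG and 4.7 in MRG after it.

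The 2 listed tiles lay 5 kb apart in intergenic sequence, 426 and 431 kb from MIR2285O-5. In the tile from 117660251 to 117660750, MSG 1 to 6 stood at 88.8%, 60.5%, 26.0%, 66.1%, 49.3% and 25.8%. MRG 1 to 6 stood at 84.2%, 92.0%, 86.9%, 86.1%, 67.3% and 56.1%. MSG 3 and 6 were lowest, MSG 1 was among the highest of all cows, and the groups overlapped, as in both tiles here and all but 6.03% of the listed tiles. Group means came to 52.7% ± 24.5 for MSG and 78.7% ± 13.9 for MRG (SD, n = 6 each), a difference of -26.0 points, and the authors' deposited table gave -27.0 points.

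The tile from 117665251 to 117665750 had the MSG cows in the same order. MSG 1 to 6 stood at 90.1%, 56.4%, 20.4%, 63.2%, 53.2% and 19.7%, and MRG 1 to 6 at 83.5%, 81.9%, 88.7%, 90.9%, 57.3% and 61.4%. Group means came to 50.5% ± 26.9 for MSG and 77.3% ± 14.3 for MRG (SD, n = 6 each), a difference of -26.8 points, and the authors' deposited table gave -29.1 points. The 2 tiles held 4 and 6 listed sites, all lower in MSG and each with a cow at exactly 0.

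Both tiles passed limma's moderated test over all 1227 tiles, with Benjamini-Hochberg adjusted p of 0.0459 and 0.0471, where 73.3% of all listed tiles passed and 31.6% passed as lower in MSG. All of these rows had been selected on the same cows, so nothing is read from the count. With 1 cow left out, limma's adjusted p ran from 0.0393 to 0.101 for the first tile and from 0.0460 to 0.108 for the second, and both stayed under 0.05 only without MSG 1, MSG 4 or MRG 6. The exact permutation test gave unadjusted p of 0.0584 and 0.0714 (two-sided, n = 6 each), and adjusted p of 0.0856 and 0.0960.

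No site of the window passed limma's test at an adjusted p under 0.05 (0 of 1089, lowest adjusted p = 0.0781), as 0.0% of all listed sites did. At an unadjusted p under 0.05, limma's test took 660 (60.6%) against 51.9% of the table, and the exact permutation test took 525 (48.2%) against 35.5%, and 0 after adjustment. Of the 516 sites with no cow at 0, tested among the 42667 such sites of the table, 430 (83.3%) passed, 181 higher and 249 lower in MSG, against 73.1% of the table.

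The 8 runs with the most sites are described one by one. The largest, 45 sites on 31 CpGs from 117649666 to 117656132, was lower in MSG throughout and lay in intergenic sequence just before the first tile. MSG 1 to 6 averaged 90.2%, 49.0%, 2.26%, 43.8%, 43.9% and 1.70%. MRG 1 to 6 averaged 87.7%, 91.3%, 88.2%, 89.5%, 46.4% and 49.96%. Cows thus stood near 90%, between 43.8% and 49.96%, or near 0, and both groups had cows at the upper and the middle level.

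The run from 117663909 to 117665699, 16 sites reaching into the second tile, had cows at like levels. MSG 1 averaged 85.3%, MSG 2, 4 and 5 averaged 41.4%, 51.7% and 46.0%, and MSG 3 and 6 averaged 0.521% and 0%. MRG 1 to 4 averaged 86.4% to 92.2%, and MRG 5 and 6 averaged 54.4% and 51.7%. No cow lay between the levels at more than 54.4% and less than 85.3%.

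Between those runs and the next, the direction turned. The run of 43 sites from 117684277 to 117690876, 39 of them higher in MSG, had all MSG cows between 83.8% and 92.3%. MRG 2 averaged 88.6%, inside the MSG range, and MRG 1, 3, 4, 5 and 6 averaged 42.0%, 60.7%, 51.0%, 57.2% and 42.8%. A cow at exactly 0 occurred at 5 of its sites. The run of 17 sites from 117611256 to 117613960 was mixed, with 6 higher and 11 lower sites, and averaged 44.1% ± 7.9 in MSG and 54.7% ± 9.5 in MRG.

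Farther along, 16 sites from 118573023 to 118575354, all lower in MSG and 10.3 to 12.7 kb from LOC107132535, had MRG cows between 91.4% and 96.8%. MSG 1 and MSG 5 averaged 88.8% and 92.3%, MSG 2, 4 and 6 averaged 48.3%, 51.2% and 45.1%, and MSG 3 averaged 6.35%. The 25 sites from 118955979 to 118960617, all lower in MSG and none with a cow at 0, had MRG cows between 92.2% and 95.8%. There MSG 2, 3, 4 and 6 averaged 49.8%, 44.6%, 45.9% and 49.7%, and MSG 1 and 5 averaged 89.2% and 94.1%, so 2 MSG cows lay at the level of MRG or just under it.

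The 16 sites from 118659805 to 118661539, all higher in MSG, had MSG 2 to 6 between 89.6% and 98.0% and MSG 1 at 56.9%. MRG 1 averaged 51.6%, MRG 3 and 6 averaged 0% and 2.08%, and MRG 2, 4 and 5 averaged 89.9%, 85.7% and 89.8%. The 14 sites from 118826112 to 118827099 were all lower in MSG. They were graded rather than stepped in MSG, at 7.82%, 53.2%, 14.3%, 18.8%, 39.0% and 19.0% for MSG 1 to 6. MRG 1 averaged 87.5% there and the other MRG cows 48.0% to 58.4%. In each of the 8 runs the groups overlapped.

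**Figure D4:**
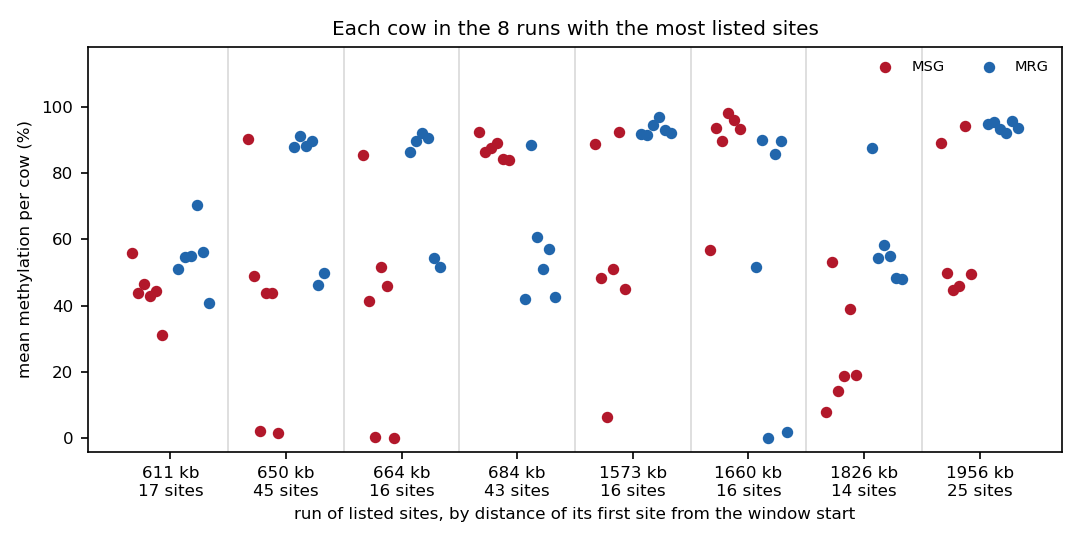
Mean percent methylation of each cow in the 8 runs with the most listed sites, ordered by the distance of their first site from the window start in kb; each point is 1 cow, MSG in red at the left and MRG in blue at the right of each run. In the runs at 650 and 664 kb the cows sit near 90%, near the middle of the scale or near 0.

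At 41 sites (3.76%) the ranges of the groups were apart, against 2.36% of the table, 18 of them higher and 23 lower in MSG, where the table had 1.39% and 0.971%. Of the 41, 25 had no cow at 0. The widest difference was at 118401624 (plus strand), in an intron of TAFA5, where MSG 1 to 6 stood at 27.3%, 50%, 0%, 0%, 50% and 0%, and MRG 1, 2, 3, 5 and 6 at 100%, 53.8%, 100%, 71.4% and 94.7%, with no value for MRG 4. The highest MSG cows and the lowest MRG cow there stood close together, at 50% and 53.8%.

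In the other direction, the widest was at 117276122 (minus strand), 41.9 kb from MIR2285O-5. MSG 1 to 6 stood at 44.4%, 55%, 43.8%, 64.3%, 66.7% and 100%, MRG 1 to 4 at 0% and MRG 5 at 30%, with no value for MRG 6. At 117646024 (plus strand), shortly before the run of 45 sites, MSG 2 to 6 stood at 35.7%, 0%, 37.5%, 30.8% and 0%, with no value for MSG 1, and MRG 1 to 6 at 90%, 93.8%, 82.4%, 84.6%, 60% and 47.4%.

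At 117039935 (minus strand), in an intron of TBC1D22A, MSG 1, 2, 3, 4 and 6 stood at 41.7%, 41.7%, 42.9%, 26.7% and 0%, with no value for MSG 5, and MRG 1 to 6 at 94.1%, 62.5%, 100%, 100%, 100% and 53.3%. At 118144412 (minus strand), 160 kb before TAFA5, MSG 1, 3, 4, 5 and 6 were all at 0%, and MRG 1, 2, 3, 5 and 6 stood at 35.3%, 83.3%, 57.1%, 50% and 50%. This was 1 of 5 sites of the window (0.459%) at which every measured MSG cow was at 0 and no measured MRG cow was, against 0.0983% of the table. Counted whatever the other group's values, all MSG cows were at 0 at 12 sites of the window (1.10%) and all MRG cows at 2 (0.184%), against 2.24% and 2.01% of the table. The other sites of the 5 lay at 118142064, 118142065, 118147224 and 118389657, where MRG averaged 51.9%, 46.2%, 41.8% and 39.5%.

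Deviations of the cows from their own group's mean were followed over distance as a description. Taking off the group mean removes the difference itself, but the sites had been listed and sorted by that difference. At the lower sites the median SD was 28.2 in MSG and 19.1 in MRG, and at the higher sites 13.2 and 30.8. Pairs of the same direction thus share the group with the wider spread, and pairs of opposite direction do not. Over 2 sites of the same direction, the median Pearson r of these deviations across the 12 cows was 0.90 for lower and 0.86 for higher sites 2 to 99 bases apart, over 110 and 54 pairs. It was 0.81 and 0.71 at 1 to 10 kb, 0.54 and 0.46 at 10 to 100 kb, and 0.30 and 0.26 at 1 to 2 Mb. Over 2 sites of opposite direction it was -0.33 at 1 to 10 kb and -0.08 at 1 to 2 Mb. In the 159 other stretches of 2 Mb with 300 or more listed sites the median r of lower pairs was 0.82 at 1 to 10 kb and 0.26 at 1 to 2 Mb. Of higher pairs at 1 to 10 kb it was 0.82 there, with an interquartile range of 0.75 to 0.87, above the 0.71 of the window. Of opposite pairs at that distance it was -0.54, with an interquartile range of -0.73 to -0.40, and the -0.33 of the window lay outside it. Pairs share cows, libraries and sites.

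**Figure D5:**
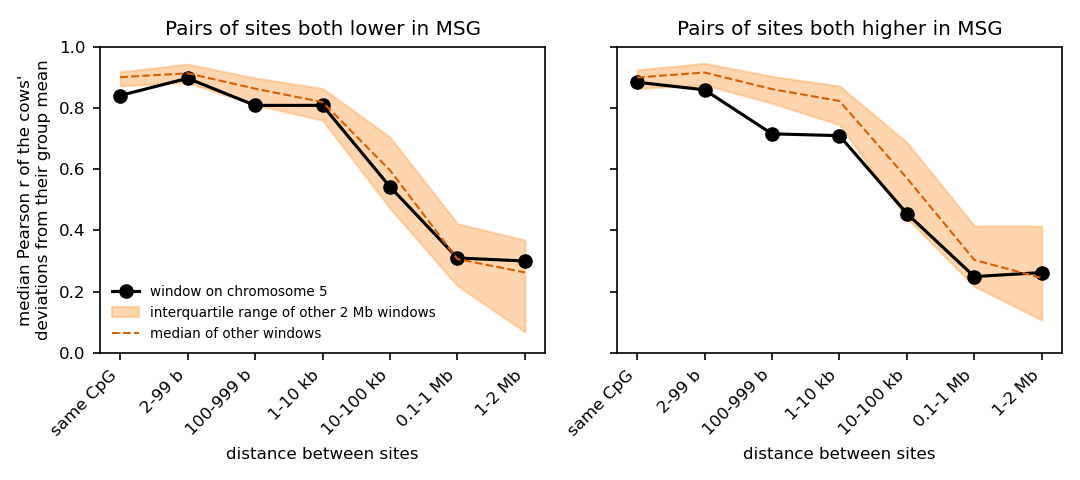
Median Pearson r, across the 12 cows, of the deviations of a cow from its group mean at 2 sites, by the distance between the sites, for pairs both lower (left) or both higher (right) in MSG. Black points are the window, the dashed line is the median of the other stretches of 2 Mb with 300 or more listed sites and the band their interquartile range; in the window r is 0.30 and 0.26 at 1 to 2 Mb.

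Genes related to those of the window were counted over the whole table, in which no site passed limma's adjusted threshold. Of 9 genes of the TAFA family and its receptors, 5 had listed sites, and TAFA5 held 274 of their 294. TAFA1 had 10 sites, all lower in MSG, and TAFA4 had 2 higher and 4 lower. Of 38 genes of TBC domain proteins, 30 had listed sites, 271 higher and 113 lower in MSG. These genes differed in direction: the 10 sites of TBC1D1 and the 9 of TBC1D21 were all lower. Of the sites of USP6NL 78 of 82 were higher, of those of TBC1D9 47 of 69 were, and of the 70 sites whose nearest start was that of TBC1D22A, before or inside the window, 51 were. That count goes by nearest start, unlike the 80 sites inside the gene and the window, of which 18 were higher. Among 31 genes expected around TAFA5 from the order of the human chromosome, 29 had listed sites, 381 higher and 429 lower in MSG. For TRMU and CELSR1, 65 of 89 and 57 of 73 sites were higher in MSG, while for ATXN10 and TTC38 37 of 50 and 20 of 23 were lower.

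Shares of blood cell types were not measured. Of 38 genes marking T, B and NK cells, monocytes, granulocytes, and erythroid cells and platelets, 20 had listed sites. T cell markers had 91 of 123 sites higher in MSG, B cell markers 23 of 31, NK cell markers 17 of 22, monocyte markers 28 of 45, granulocyte markers 9 of 10, and erythroid and platelet markers 82 of 187. Their part in the values of the window was not tested.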

How the data were processed

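Per the labels' protocols, blood DNA was converted with TET2, T4-BGT and APOBEC3A before sequencing. Per the submitters' processing notes, the tools were fastp 0.23.1, Bismark, DRAGEN and ChIPseeker 1.32.1 and the build ARS-UCD1.2; thresholds and order are not given in the sources used here. Deposited values are each animal's percent methylation, the authors' own difference as a score in points, and a p-value and q-value per row, for sites and for tiles of 500 bases. Every deposited row had an absolute difference above 25 points and a q-value of at most 0.01, and every site had values for at least 5 cows a group.

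Sequencing depth behind each value was not established. The 36 columns of coverage and read counts in the tile table carry no cow's name and were not used. The site table has no such columns. The contrast was fitted on the percent values of each whole table with limma 3.58.1 (R 4.3.3), without the cows a row lacks, two-sided, Benjamini-Hochberg adjusted, at a threshold of 0.05. The procedure was tested on simulated data. The exact permutation test used all regroupings of the cows measured at a row. These were 924 for a row with all 12 cows (smallest p 0.00216) and fewer for a row lacking cows, where the smallest p was larger. Cows are separate animals; their numbers follow the order of the labels.

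A site counts as higher or lower by the difference of group means, and as overlapping when the groups' ranges overlap. Genes with 5 or more sites, all tiles, the 8 runs with the most sites and the 5 non-overlapping sites with the widest difference are named; the promoter and exon sites, and the sites with all MSG cows at 0, were picked after their values were seen. The window and the gene lists were chosen with earlier results of these data known. The RefSeq gene table (ARS-UCD2.0) served for gene types only. Tables were handled with Python 3.11.15, pandas 2.3.3 and numpy 2.4.6. Alternatives were the exact test, a log2 ratio scale, complete rows, rows with no cow at 0, averaging strands, counting runs once, and leaving out each cow.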

Additional observations from a re-analysis of the deposited data

Results flagged for a closer look

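Among 53 sets of values from 1 group that were searched for a cow far from the others, 7 had one, and chance gives about 1 in 20. Several sets share sites, so their flags are not independent and no excess over chance is read from them. Over the 463 higher sites MSG 1 averaged 66.3%, against 83.0% to 91.3% in the other MSG cows. At the higher sites with a cow at exactly 0, MSG 1 averaged 44.2%, against 74.7% to 89.8%. In the run from 118659805 to 118661539, MSG 1 averaged 56.9%, against 89.6% to 98.0%.

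Over the lower sites with no cow at 0, MRG 6 averaged 75.8%, against 89.6% to 93.2% in the other MRG cows. At the lower sites in TBC1D22A, MRG 6 averaged 58.7%, against 80.7% to 92.3%. In the run from 118826112 to 118827099, MRG 1 averaged 87.5%, against 48.0% to 58.4%. At site 117276122, MRG 5 stood at 30.0% and the other 4 measured MRG cows at 0%.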

How the results depend on the processing

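The 2 tiles passed limma's adjusted threshold as reported; 0 passed by the exact permutation test or on the log2 ratio scale, and 0 to 2 passed with 1 cow left out. Over the whole table those settings called 899, 213 and 621 tiles, and 397 to 797 with 1 cow left out. Of the sites, 0 passed as reported and 430 passed among sites with no cow at 0; the set tested is smaller there and the cause was not tested. Sites higher in MSG made up 42.5%, and from 41.7% to 43.8% with rows restricted, strands averaged or runs counted once. The share was 42.5% with any 1 cow left out. Rows listed for a difference of at least 25 points can hardly turn direction that way, so nothing is read from this. The mean difference ran from 30.0 to 38.8 points at the higher sites and from -31.1 to -39.5 at the lower ones. No paired analysis was possible because the cows' numbers only name them. Without read depth per cow, no counting error can be given, and a value of 0 or 100% may rest on few reads. Whole blood values cannot tell cell types apart, and sequence variants of the cows were not analysed here.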

Other observations

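Over the 241 higher sites in the 1 Mb before the window, MSG 1 to 6 averaged 56.6%, 49.3%, 83.6%, 78.8%, 54.5% and 88.6%. MRG 1 to 6 averaged 10.8%, 23.6%, 35.3%, 73.6%, 11.4% and 39.7%. MRG 1, 2 and 5 were lowest there, MRG 3 and 6 were next, and MRG 4 lay among the MSG cows; inside the window MRG 1, 3 and 6 were lowest. In the 1 Mb after the window the 140 higher sites had MRG 1, 3 and 6 lowest again, at 32.2%, 35.2% and 34.8%.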
